A study of Mus musculus with 6 samples.

Results

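Interferon-stimulated genes, the transcripts that cells raise when they sense interferon, are described here as a module of 45 listed mouse genes: interferon regulatory factors, a STAT factor and interferon-induced effectors. The members were chosen by name, with earlier results of these data known. Of the 45, 43 had at least 1 probe set on the array that the platform annotation pairs with a single gene. The only probe set of Isg15 was annotated to a second gene as well and Ifi44 had no named probe set, so neither has a value here. Of the 43 members, 39 were bright enough to be tested among 12994 genes in all. Mx1, Mx2, Gbp2 and Sp100 stayed too dim, and their values are given below.

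RNA came from C57BL/6 mice aged 14 days, from small-intestinal epithelial cells loosened with EDTA, and was read on Affymetrix mouse expression arrays, 1 array per sample. The 3 replacement samples carried the genotype Ecadflox/Ncad;Vil-Cre, in which Cre driven by villin regulatory sequences acts in the gut epithelium, so that N-cadherin stands in for E-cadherin. The 3 control samples came from E-cadherin-positive littermates whose genotype is given only as Control, so whether they carried the floxed allele, the N-cadherin allele or Vil-Cre is unknown here. Nothing states whether a sample was 1 animal or a pool, so the p-values cover no more than the variation among these samples, which may be technical.

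Several facts of the whole series bear on every value. Control 2 and control 3 differed by a log2 SD of 0.115 over 5109 bright probe sets, against 0.347 to 0.564 for the other pairs within a group and 0.0812 to 0.134 for 18 hybridization control probe sets over all array pairs, and were counted as 1 replicate. This leaves n = 3 replacement and n = 2 control replicates. Sex-linked genes read replacement 1, control 2 and control 3 as male and replacement 2, replacement 3 and control 1 as female. Cdh1, which encodes E-cadherin, had intensities of 1073, 1174.6 and 1356.6 in the replacement arrays, against 2757.4, 2334.8 and 2203.5 in the control arrays (log2 difference -1.06, SE 0.240, limma adjusted p = 0.0250), and both Cdh2 probe sets stayed under 16 on all 6 arrays. The 10 epithelial markers were bright enough to be tested, and their summed intensity was 30078.9 to 38091.9 in the replacement arrays and 26856.2 to 28368.7 in the control arrays. Of these the keratin genes Krt19 (2.41-fold, limma adjusted p = 0.0103) and Krt20 (2.55-fold, adjusted p = 0.0274) rose. Not called were Krt18 (log2 difference 0.76), Krt8 (0.40), Cdx2 (0.20), Epcam (0.18), Vil1 (0.03), Alpi (-0.11), Fabp2 (-0.12) and Cdhr2 (-0.24).

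Type I and type III interferons bind receptors that signal through JAK kinases to STAT factors, and STAT2 and IRF9 are parts of the resulting complex ISGF3. ISGF3 and IRF proteins bind the interferon-stimulated response element in promoters, while the response to interferon gamma acts through the gamma-activated site. The induced proteins sense viral nucleic acid, block viral translation, entry or release, or attack the vacuoles of intracellular pathogens. The intestinal epithelium is known for a strong response to type III interferon, and in the suckling mouse it responds to type I interferon as well.

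The response element can be seen in the promoters of the members. The core GAAANNGAAA was searched on both strands of RefSeq promoter windows (GRCm38.p6), 250 bases before to 50 bases after an annotated start, and was present for 17 of the 33 members that the table holds (51.5%), against 3.99% of all 27025 genes with such windows. By window the shares were 18 of 42 (42.9%) for members and 3.44% for all windows. The gamma-activated core TTCNNNGAA was found for 10 of the 33 members (30.3%), against 9.55% of all genes, and in 1 of the members' windows a match to each motif overlapped. Promoters are printed for the 4 members that fell in the replacement samples and have a window (Ifit1, Gbp3, Ifi47 and Xaf1). Also shown are Igtp and Irgm1, related GTPases, neither of them called, whose differences had opposite signs. The sequences printed are the 160 bases before the start of each gene. They lie at chr19:34640729-34640888 (plus strand) for Ifit1, chr3:142559884-142560043 (plus strand) for Gbp3, chr11:58199396-58199555 (plus strand) for Igtp, chr11:48871421-48871580 (minus strand) for Irgm1, chr11:49076427-49076586 (plus strand) for Ifi47 and chr11:72301469-72301628 (plus strand) for Xaf1. Each runs 5′ to 3′ toward the start on the strand of its gene, and capitals mark every match to the GAAANNGAAA core on either strand.
Ifit1: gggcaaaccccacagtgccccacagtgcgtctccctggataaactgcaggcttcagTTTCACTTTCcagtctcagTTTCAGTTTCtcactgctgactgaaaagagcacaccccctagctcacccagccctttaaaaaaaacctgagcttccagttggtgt
Gbp3: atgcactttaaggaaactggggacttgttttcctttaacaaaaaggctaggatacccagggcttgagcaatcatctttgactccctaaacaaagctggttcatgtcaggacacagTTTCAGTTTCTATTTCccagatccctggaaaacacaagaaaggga
Igtp: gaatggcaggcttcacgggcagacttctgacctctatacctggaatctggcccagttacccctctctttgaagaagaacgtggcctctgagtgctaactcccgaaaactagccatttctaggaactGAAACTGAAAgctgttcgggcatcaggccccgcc
Irgm1: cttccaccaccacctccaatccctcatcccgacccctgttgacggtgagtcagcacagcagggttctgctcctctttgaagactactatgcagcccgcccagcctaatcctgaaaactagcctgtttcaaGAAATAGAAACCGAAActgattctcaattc
Ifi47: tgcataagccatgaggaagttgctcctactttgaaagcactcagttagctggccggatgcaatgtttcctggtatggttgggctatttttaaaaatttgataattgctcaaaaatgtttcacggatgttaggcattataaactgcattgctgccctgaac
Xaf1: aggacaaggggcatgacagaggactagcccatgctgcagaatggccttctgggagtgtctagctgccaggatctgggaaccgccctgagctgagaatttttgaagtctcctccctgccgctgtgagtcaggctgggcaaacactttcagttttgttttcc
Ifit1 held 2 separate matches and Gbp3 and Irgm1 2 overlapping ones each, while the shown stretches of Ifi47 and Xaf1 held no such letters. Gbp3 has a second annotated start, whose window held no match.

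**Figure D1:**
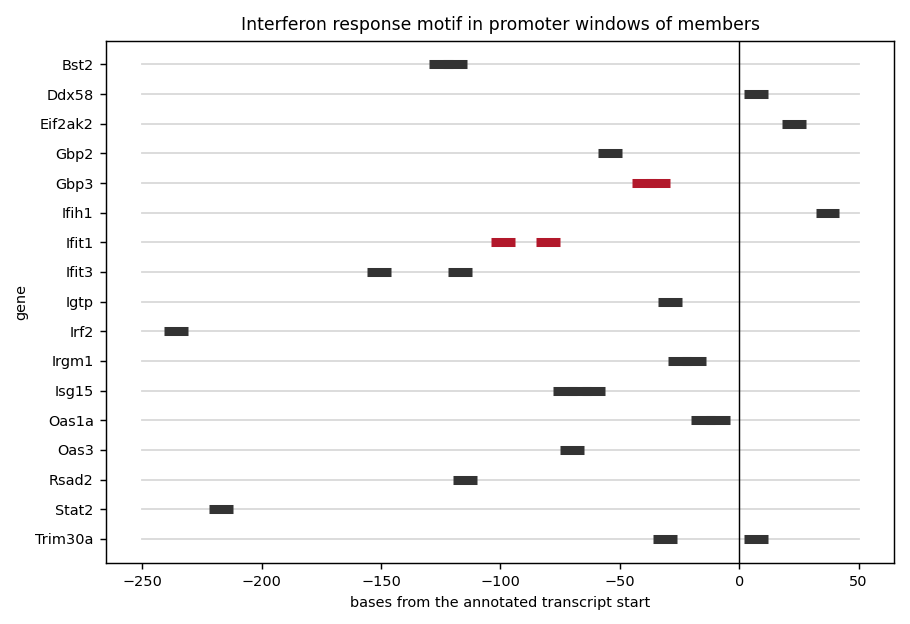
Position of each match to GAAANNGAAA (thick bars) in the promoter windows of the 17 members that hold one, in bases from the annotated transcript start, with all windows of a gene drawn on its line. Red marks members called lower in the replacement samples, and most matches lie within 160 bases before the start.

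As a group, the measured members stood lower after cadherin replacement. With limma and an adjusted p under 0.05 as the threshold for a call, 7 of 39 members fell (17.9%) and none rose. Of all genes tested 9.12% were called, 4.66% lower and 4.46% higher. At an unadjusted p under 0.05 there were 21 lower members and 1 higher one, where 12.9% of all genes were lower and 11.4% higher. The log2 difference, replacement minus control, was below 0 in 32 of 39 (82.1%, against 52% of all genes). By the brightest probe set of a gene, all 3 replacement arrays lay under all 3 control arrays in 23 members (59%, against 18.8% of all genes). They lay above them in 1 member (17.8% of all genes). The median difference was -0.59 on the log2 scale, against -0.02 over all genes. A gene had to reach an intensity of 16 on at least 3 of the 6 arrays to be tested. Gbp6 passed this filter through the control arrays alone, so its call, counted among the 7, adds no support. With no filter, 35 of the 43 members with a probe set had a difference below 0, with a median of -0.55. In these cell suspensions, fewer cells of a type and less RNA per cell cannot be told apart.

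**Figure D2:**
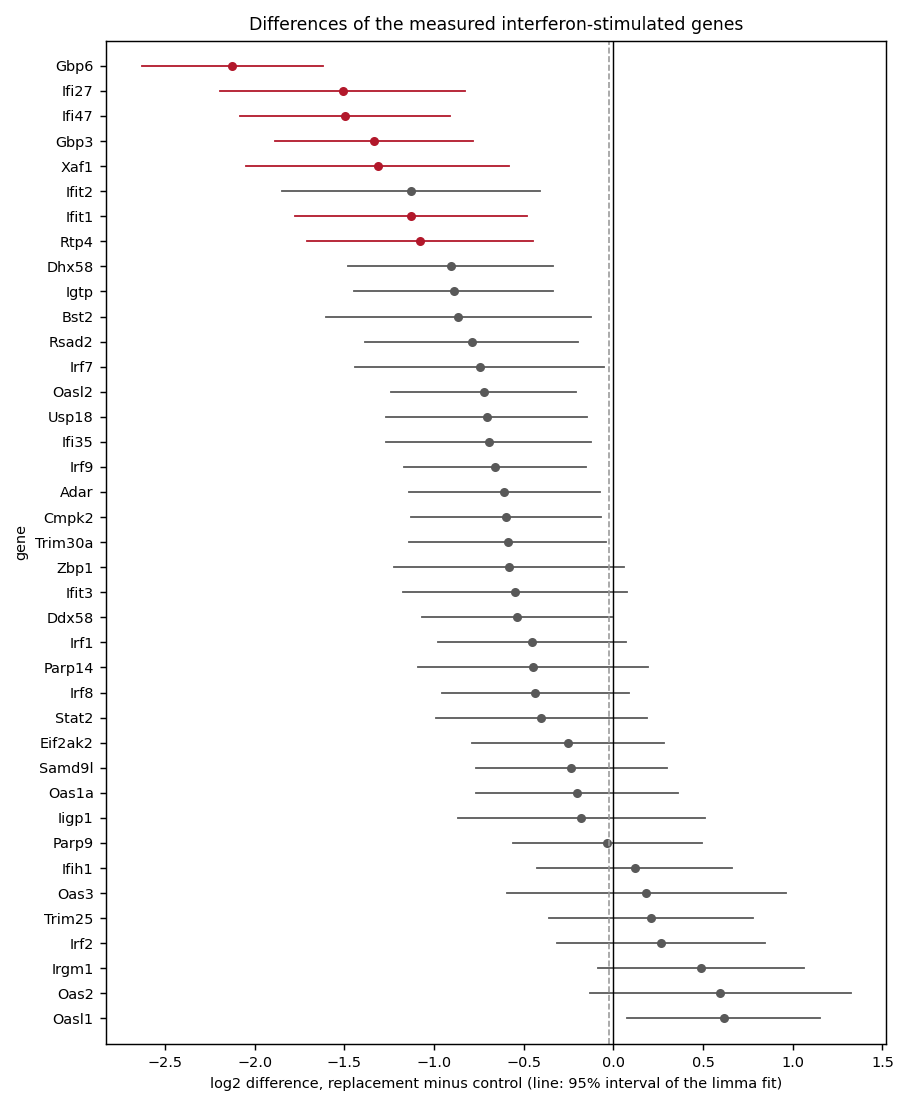
Log2 difference, replacement minus control, of the 39 measured members, with the 95% interval of the limma fit. Red marks the 7 genes with an adjusted p under 0.05, the dashed line is the median of all genes, and 32 of the points lie below 0.

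Among the transcription factors Irf9, the DNA-binding subunit of ISGF3, had intensities of 261.5, 294.4 and 272.6 in the replacement arrays, against 454.2, 409.2 and 429.4 in the control arrays. The groups did not overlap, and the log2 difference was -0.66 (SE 0.226, limma adjusted p = 0.105). Irf7, which drives the amplifying wave of type I interferon, had 501.8, 399.7 and 251.2 in the replacement arrays, against 647.5, 584.9 and 600.5 in the control arrays, with a difference of -0.75 (SE 0.309, adjusted p = 0.171). Replacement 3 was far below the other replacement arrays for this gene. Irf1, an activator induced by interferon gamma, read 634.1, 558.4 and 498.6 in the replacement arrays, against 780.5, 773.3 and 744.3 in the control arrays (difference -0.46, adjusted p = 0.269). Irf8, best known from myeloid cells, read 252.6, 282.2 and 316.3 in the replacement arrays, against 390.0, 378.6 and 370.8 in the control arrays (difference -0.44, adjusted p = 0.289). For both genes every replacement array lay below every control array, yet the test did not pass. Stat2, the STAT partner in ISGF3, had differences of -0.40 and -0.91 from its 2 probe sets, and Irf2, an antagonist of Irf1, had 0.27 from a probe set whose suffix marks transcripts shared between genes. None of these 6 factors passed the adjusted threshold.

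The IFIT proteins bind foreign RNA and hold back its translation. Ifit1 had intensities of 912.5, 604.3 and 507.8 in the replacement arrays, against 1362.9, 1510.5 and 1493 in the control arrays. Replacement 1 was the highest of the replacement arrays and still below every control. Ifit1 fell 2.19-fold (log2 difference -1.13, SE 0.288, limma adjusted p = 0.0408). Ifit2 read 237.8, 244.4 and 334.9 in the replacement arrays, against 821.1, 417.1 and 427 in the control arrays, with control 1 well above the other controls. Its difference was also -1.13 (SE 0.321), but the adjusted p was 0.0586. Ifit3, for which replacement 1 overlapped the lowest control, had a difference of -0.55 (adjusted p = 0.262).

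Usp18, the protease that strips ISG15 from proteins and restrains the type I interferon receptor, read 139.9, 112.9 and 110.3 in the replacement arrays, against 224.8, 168.5 and 174.9 in the control arrays. The arrays did not overlap (difference -0.71, SE 0.249), and the limma adjusted p was 0.115.

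Of the interferon-induced GTPases, which attack pathogen vacuoles, 3 of 6 measured were called lower (50%, against 4.66% of all genes), Gbp6 included. Gbp6 was under 16 in every replacement array (2.3, 2.1 and 2.3), against 74.4, 71.3 and 59.9 in the control arrays. With the floor of 16 in place of the replacement values it fell at least 4.36-fold (log2 difference -2.12 or beyond, SE 0.225, limma adjusted p = 7.15e-04). Its second probe set read 11.1, 6.8 and 14.4 in the replacement arrays and 48, 30.6 and 33 in the control arrays. Both probe sets passed the filter through the control arrays alone, so the call of Gbp6 adds no support. Ifi47, an IRG family GTPase, read 194.3, 169.8 and 124.4 in the replacement arrays, against 446.8, 454.2 and 459.2 in the control arrays, where the 3 arrays were nearly equal. It fell 2.82-fold (difference -1.50, SE 0.261, adjusted p = 0.00826). Gbp3 read 21.4, 18.6 and 14.6 in the replacement arrays, against 51.3, 42.9 and 42.3 in the control arrays. With 1 replacement array at the floor, it fell at least 2.52-fold (difference -1.33 or beyond, SE 0.245, adjusted p = 0.0104).

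The other members of the family were not called. Igtp, an IRG protein of the regulatory IRGM class, read 124.1, 138.9 and 114.8 in the replacement arrays, against 271.4, 210.0 and 189.6 in the control arrays. The arrays stood apart, with a difference of -0.89 (SE 0.247), but the limma adjusted p was 0.0543. Irgm1, of the same class, read 120.9, 176.0 and 161.1 in the replacement arrays, against 99.3, 110.0 and 122.5 in the control arrays. Here the arrays overlapped and the difference was 0.49 (95% interval -0.08 to 1.06, adjusted p = 0.280). Iigp1, an effector IRG protein, overlapped between the groups (difference -0.18, 95% interval -0.87 to 0.51). Gbp2, a guanylate-binding protein, reached 16 once over both of its probe sets, at 17.8 in control 1, with at most 12.4 in the replacement arrays.

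**Figure D3:**
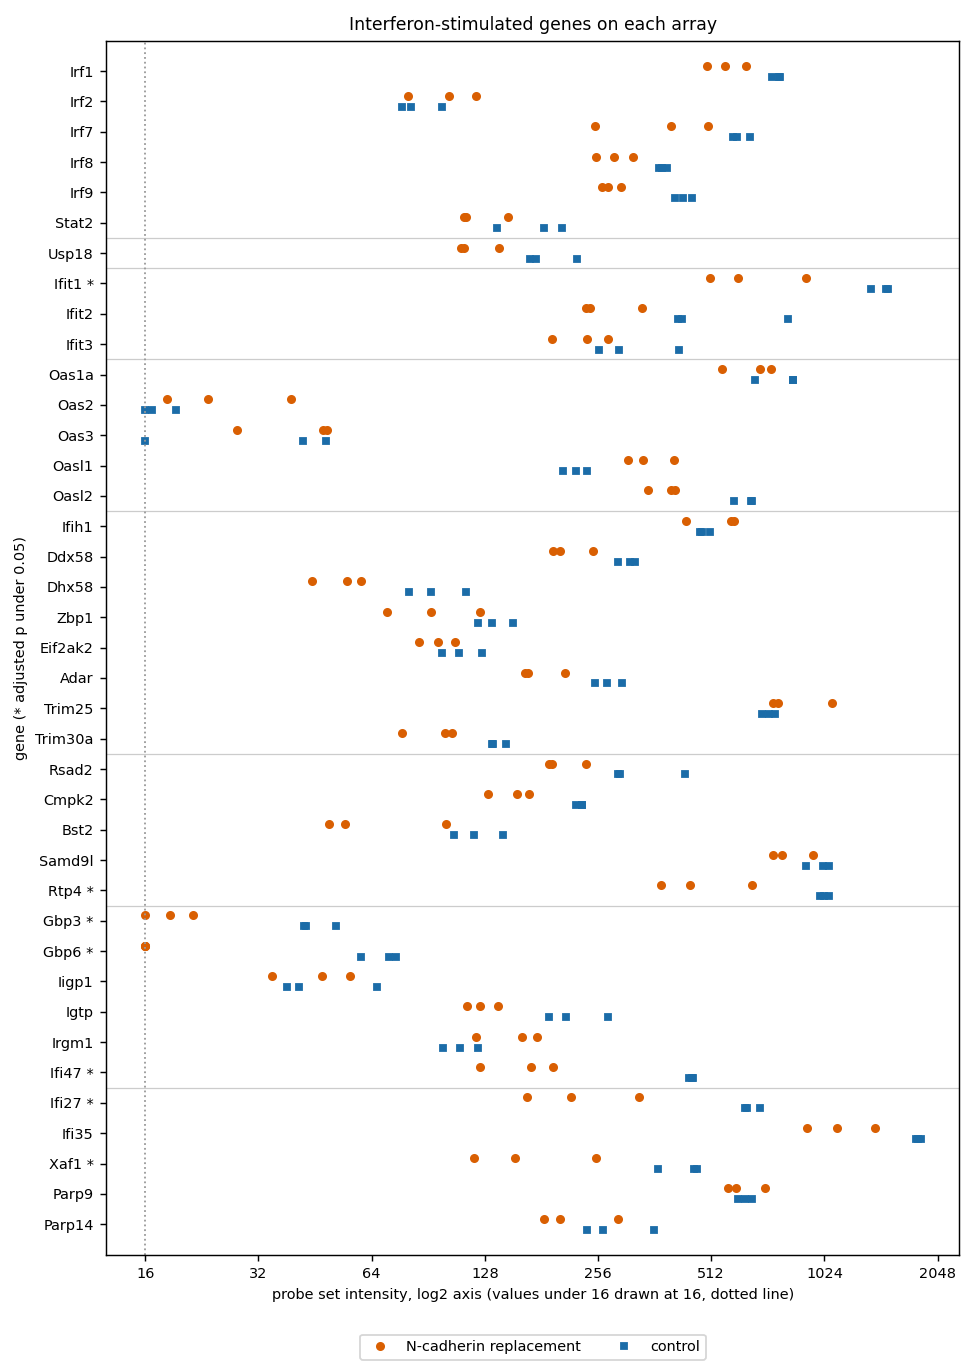
Probe set intensity of each of the 39 measured members on the 3 replacement arrays (orange circles, upper) and the 3 control arrays (blue squares, lower), on a log2 axis with values under 16 drawn at 16 and rows grouped by role. Asterisks mark an adjusted p under 0.05, and in all 7 of those genes the orange points lie left of the blue ones.

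The oligoadenylate synthetases make the messenger that activates RNase L when they meet double-stranded RNA, and none of the 5 measured passed the test. Oasl2, a mouse synthetase-like protein, read 410.9, 401.2 and 347.7 in the replacement arrays, against 655.5, 651.6 and 587.4 in the control arrays. Its difference was -0.72 (SE 0.229, limma adjusted p = 0.0836). Oasl1, which in mice holds back translation of Irf7, was the only member whose brightest probe set had every replacement array above every control. It read 406.7, 337.8 and 306.7 in the replacement arrays, against 239.6, 206.9 and 224.2 in the control arrays. Its difference was 0.62 (SE 0.240, adjusted p = 0.148). Both genes thus stood apart by array in opposite directions, and neither passed. Oas1a (-0.20), Oas2 (0.60) and Oas3 (0.18) overlapped between the groups, and Oas2 and Oas3 each had 1 control array under 16.

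Of the nucleic acid sensors and their regulators none passed, and 4 of 8 had all replacement arrays below the controls (50%, against 18.8% of all genes). Dhx58 (LGP2) is a helicase that tunes RIG-I-like sensing. It read 44.5, 55.2 and 59.9 in the replacement arrays, against 114.0, 91.8 and 80.5 in the control arrays. The difference was -0.91 (SE 0.255, limma adjusted p = 0.0566), but the dimmer probe sets of Dhx58 gave -0.55 and -0.06. Ddx58, the sensor RIG-I, read 202.4, 194.4 and 247.6 in the replacement arrays, against 320.8, 289.8 and 310.5 in the control arrays, with a difference of -0.54 (adjusted p = 0.198). Ifih1 (MDA5), the related sensor of long double-stranded RNA, had 0.12 with a 95% interval of -0.43 to 0.66. Adar, which edits double-stranded RNA, read 209.7, 166.2 and 163.3 in the replacement arrays, against 271.0, 297.3 and 250.9 in the control arrays. The difference was -0.61 (adjusted p = 0.148), and the dimmer probe sets of Adar gave -0.15 and -0.41. Trim30a, a mouse TRIM protein, read 104.4, 76.9 and 100 in the replacement arrays, against 146.0, 133.6 and 134.6 in the control arrays (difference -0.59, adjusted p = 0.171). Its dimmer probe set gave a larger difference, -1.37, which passed when every probe set was tested on its own (adjusted p = 0.0249). The Z-nucleic acid sensor Zbp1 (-0.58), the kinase PKR encoded by Eif2ak2 (-0.25) and the ubiquitin ligase Trim25 (0.21) overlapped between the groups. The Trim25 probe set may be shared between genes. A dimmer Trim25 probe set read 130.6, 122.2 and 133.3 in the replacement arrays, against 84.2, 78.4 and 66.8 in the control arrays. There every replacement array lay above every control (difference 0.72), and the remaining probe set gave 0.12.

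Among the other antiviral effectors Rtp4, a chaperone of membrane receptors in the Golgi, read 659, 450.4 and 376.8 in the replacement arrays, against 997.1, 1023.3 and 1051.2 in the control arrays. It fell 2.11-fold (log2 difference -1.08, SE 0.281, limma adjusted p = 0.0440), and its dimmer probe set gave -1.30. Rsad2 (viperin), which makes a chain-terminating nucleotide, read 237.6, 192.8 and 189.4 in the replacement arrays, against 434.6, 292.8 and 288.7 in the control arrays. The difference was -0.79 (adjusted p = 0.0994), and the dimmer probe sets of Rsad2 gave -0.31 and -0.74. Cmpk2, a nucleotide kinase encoded beside Rsad2, read 167.6, 130.2 and 156.3 in the replacement arrays, against 223.9, 231.8 and 231.7 in the control arrays (difference -0.60, adjusted p = 0.151). Its dimmer probe set went the other way, at 0.40. Bst2 (tetherin), which holds budding virus at the cell surface, read 101.2, 54.4 and 49.2 in the replacement arrays, against 106, 142.9 and 119.7 in the control arrays. Replacement 1 nearly reached the lowest control there, and the difference of -0.86 had an adjusted p of 0.142. Samd9l, an inhibitor of viral translation, had -0.23 and overlapped. Mx1 and Mx2, dynamin-like GTPases, were near or under 16 on every array, at 14.2 to 17.9 and 4.5 to 6.8 in the replacement arrays and 4.6 to 11.6 and 4.1 to 6.9 in the control arrays.

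Of the remaining induced proteins Ifi27, a small hydrophobic protein, read 328.3, 216.9 and 165.6 in the replacement arrays, against 636.6, 628.2 and 691.7 in the control arrays. It fell 2.85-fold (log2 difference -1.51, SE 0.304, limma adjusted p = 0.0154), and its other probe set gave -1.47. Xaf1, a binding partner of the apoptosis inhibitor XIAP, read 252.2, 153.5 and 119.5 in the replacement arrays, against 369.6, 467.9 and 459.5 in the control arrays, and fell 2.48-fold (difference -1.31, SE 0.327, adjusted p = 0.0368). Its other probe set was bright only in control 1 (128.7), with all other arrays between 12.6 and 17.4. Ifi35, which binds the interferon-induced protein Nmi, read 1392.8, 1104.1 and 917.7 in the replacement arrays, against 1811.7, 1795.5 and 1844.9 in the control arrays. The arrays did not overlap (difference -0.70, SE 0.255, adjusted p = 0.128), though the probe set may be shared between genes and its dimmer ones gave -0.37 and -0.39. The ADP-ribosyltransferase family members Parp9 (-0.03) and Parp14 (-0.45) overlapped between the groups. Sp100, a nuclear body protein, reached 16 in control 1 alone, with at most 14 in the replacement arrays and 23.5 in control 1. Over all members, 17 had more than 1 probe set above the filter, and in 15 of them these shared their sign, Cmpk2 and Eif2ak2 being the exceptions.

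The replacement arrays differed among themselves. Relative to the control mean, the median member lay at -0.38 on the log2 scale in replacement 1, -0.63 in replacement 2 and -0.71 in replacement 3, against 0.04, -0.02 and -0.04 in control 1, control 2 and control 3. The medians over all genes lay between -0.05 and 0.01 on the 6 arrays. Between 32 and 33 of the 39 members were under the control mean on each replacement array, so the lower level was not that of a single array. Of all genes 51.1% to 53.5% were under it there. On control 1, control 2 and control 3 the members under it were 16, 23 and 24. Replacement 1 was the highest replacement array for 24 of 39 members, among them all 7 that fell, and replacement 3 the lowest for 23. Gbp6, at the floor in all 3, is counted under replacement 1. Among the control arrays, control 1 was the highest for 23 of 39 members and the lowest for 12. Within the male arrays, replacement 1 against control 2 and control 3, the median member difference was -0.37. There 31 of 39 were below 0, against 49.4% of all genes. Within the female arrays, replacement 2 and replacement 3 against control 1, the median member difference was -0.74. There 33 of 39 were below 0, against 53.2% of all genes. Each of these values rests on 1 control replicate and has no test.

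**Figure D4:**
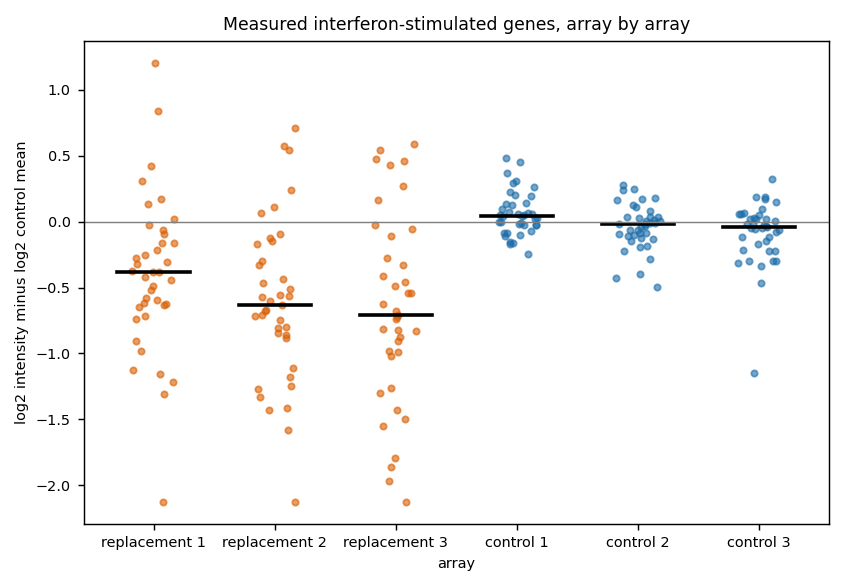
Log2 intensity of each of the 39 measured members minus its control mean, by array, with black bars at the median. The 3 replacement arrays have medians of -0.38, -0.63 and -0.71 and the 3 control arrays lie near 0.

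The calls rested on few control replicates. Without control 1, and likewise without control 2 and control 3 together, none of the 39 members was called, and 0.0847% and 0.0308% of all genes were, in fits that take the spread of the single remaining control replicate from the other samples. There were 3 calls without replacement 2 and 2 without replacement 3, where 4.1% and 2.88% of all genes were called. With all 6 arrays as separate replicates 15 members were lower and 1 higher, Oasl1 (adjusted p = 0.0413), and 18.1% of all genes were called. No setting tried reversed a called member.

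Other interferon-induced genes, a list that shares no member with the module, were lower as well. This list was chosen with earlier results of these data known, so it adds no independent support. Of 35 measured, 5 fell (14.3%, against 4.66% of all genes) and 1 rose (2.86%, against 4.46%). A difference below 0 was seen in 29 (82.9%, against 52% of all genes), and the median was -0.58. In 20 of them the replacement arrays lay under all control arrays (57.1%, against 18.8% of all genes). In 4 of them the replacement arrays lay above all control arrays (11.4%, against 17.8% of all genes), among them Ifit1bl1 (log2 difference 0.80), which was not called. Gbp7, a further guanylate-binding protein, read 55.7, 54.9 and 67.5 in the replacement arrays, against 183.7, 175.4 and 161.3 in the control arrays, and fell 2.97-fold (log2 difference -1.57, SE 0.234, limma adjusted p = 0.00349). Herc6, a ligase for ISG15 in mice, fell 2.998-fold (-1.58, SE 0.277, adjusted p = 0.00838), with 78.3, 50.6 and 62.8 in the replacement arrays and 223.1, 146.3 and 173.5 in the control arrays. Trafd1, a brake on innate signalling, fell 2.18-fold (-1.12). Uba7, the ISG15-activating enzyme, and the RNA helicase Mov10 fell by 0.94 and 1.09 on the log2 scale. Both were named after their values were seen, and both are counted among the 5. Slfn2, a Schlafen protein, rose 2.90-fold, with 652.6, 527.4 and 482.1 in the replacement arrays and 223.6, 178.9 and 144.9 in the control arrays (difference 1.53, SE 0.260, adjusted p = 0.00707).

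Genes of interferon sensing, signalling and regulation were listed separately, and no difference between lists was tested. These lists also hold interferon-induced genes, Batf2 among them, and were chosen with earlier results of these data known. In the list of nucleic acid sensing up to interferon 3 of 15 measured genes rose (20%, against 4.46% of all genes). None fell (4.66% of all genes), and the median difference was 0.10. The 3 include Sting1, which was tested only through its replacement arrays. Tlr3, the endosomal receptor of double-stranded RNA, read 78.8, 76.3 and 94.9 in the replacement arrays, against 29.3, 19.7 and 16.3 in the control arrays, and rose 3.62-fold by a probe set that may be shared between genes (log2 difference 1.86, SE 0.276, limma adjusted p = 0.0035). Sting1, the adaptor of cytosolic DNA sensing, read 27.6, 48.1 and 49.6 in the replacement arrays, against 5.2, 2.9 and 3.8 in the control arrays, all under the floor. It was at least 2.52-fold higher, and since it passed the filter through the replacement arrays alone, its call (adjusted p = 0.0238) adds no support. Nlrx1, a mitochondrial NOD-like protein, rose by 0.87 (adjusted p = 0.0492). The kinase Tbk1, which activates IRF3, had -0.68 (adjusted p = 0.0971). Batf2, an interferon-induced partner of IRF factors, rose most in the pathway lists: 128.3, 82.0 and 90.1 in the replacement arrays, against 7.4, 15.4 and 17.6 in the control arrays, at least 5.995-fold higher (difference at least 2.58, adjusted p = 6.18e-04). Among the control arrays only control 3 reached 16 for Batf2. The gene met the filter through the replacement arrays, so its call adds no support either. The other factors of its list, Irf4 (0.39) and Ciita (-0.21), did not pass.

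Ligands, receptors and their signal transducers gave no call. Of 12 interferon ligand genes 7 had a named probe set, and over all of these the highest intensity was 22.1. Ifnb1 had a difference of 0.15 and Ifna1 0.25. All 6 receptor chains were measured. Ifnar2, a chain of the type I receptor, read 161.5, 121.3 and 91.3 in the replacement arrays, against 176.7, 364.1 and 344.7 in the control arrays (log2 difference -1.04, SE 0.351, limma adjusted p = 0.102), and control 1 lay close to replacement 1. The interferon gamma receptor chains Ifngr2 and Ifngr1 had 0.56 and 0.37, with every replacement array above every control for both. Il10rb, shared by the type III receptor, had -0.47, and the specific type III chain Ifnlr1 had -0.28. Among 7 measured kinases and STATs the smallest p belonged to Stat5a (-0.81, adjusted p = 0.0871), followed by Stat3 (-0.38), Stat5b (-0.35) and Tyk2 (-0.25). None of 13 inhibitors of the pathway passed, and those with the smallest p were Socs2 (-0.52), Ptpn2 (-0.35), Pias1 (-0.27) and Cish (-0.27). At an unadjusted p under 0.05 there were no ligands, 1 of 6 receptors, 1 of 7 kinases and STATs and no inhibitor. Both of these genes were lower, where 12.9% of all genes were lower and 11.4% higher.

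**Figure D5:**
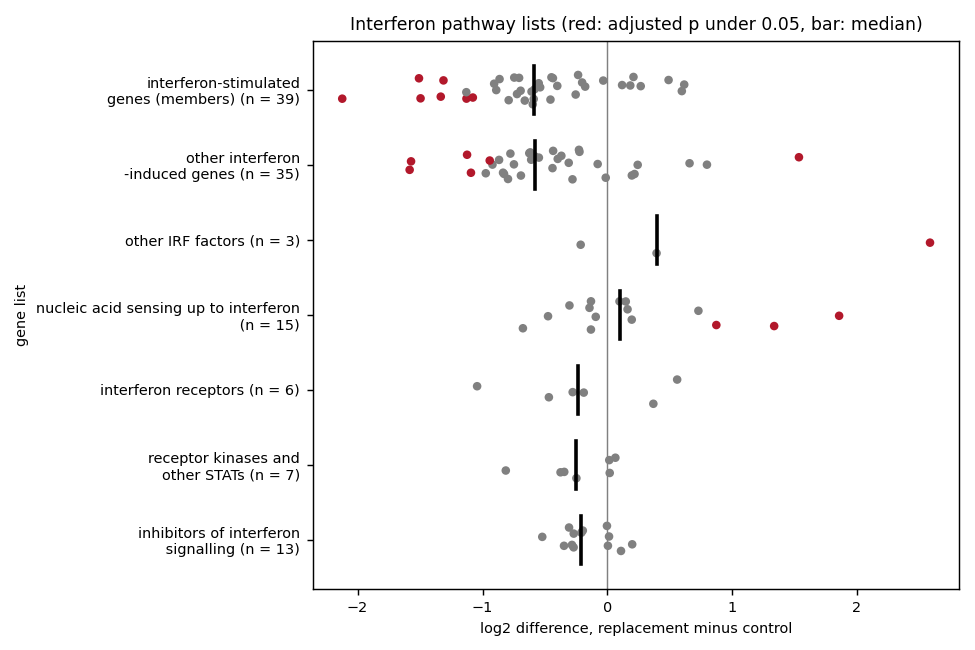
Log2 difference, replacement minus control, of each measured gene in the module and in 6 lists of the interferon pathway, with black bars at the list median and red for an adjusted p under 0.05. The module and the list of other interferon-induced genes have medians of -0.59 and -0.58, and the sensing list has 0.10. Further interferon-induced genes, such as Batf2, stand in the remaining lists.

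Members with and without the response element did not separate by direction. Of the 15 measured members with a GAAANNGAAA match, 11 had a difference below 0 and the median was -0.54. Of the 14 with a window but no match, 12 were below 0 and the median was -0.63. Irgm1, with 2 overlapping matches near its start, had a positive difference, and Ifi47, with none in its window, was among those that fell most. These are descriptions of letters in a window and were not tested.

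Markers of the epithelium rose in part, as given above, and immune cells also express many of the members, so their markers are given beside the result. The summed intensity of 7 leukocyte markers was 149.8 to 229 in the replacement arrays. In control 1 it was 291.6, against 136.3 in control 2 and 132.9 in control 3. In the T cell list 6 of 9 named markers, Cd3d, Cd3e and Cd3g among them, were under 16 on every array. The B cell list summed to 109.7 to 144.9 in the replacement arrays and 106.3 to 157.5 in the control arrays, and the dendritic cell list to 51.9 to 112.4 in the replacement arrays and 78.3 to 116.6 in the control arrays. The macrophage list summed to 1266.6 to 1895.3 in the replacement arrays, against 2760.7 to 3290.1 in the control arrays. Most of that sum was Csf1r, the receptor of colony-stimulating factor 1, which fell 2.72-fold (limma adjusted p = 0.0143), whereas Mrc1 of the same list rose (log2 difference 2.19, adjusted p = 0.00602), and Adgre1, Cd68, Lyz2 and Cx3cr1 did not pass. Fibroblast markers summed to 498 to 574.1 in the replacement arrays and 318 to 1378.5 in the control arrays, with control 1 the highest. Endothelial markers summed to 84.8 to 139.5 in the replacement arrays and 66.6 to 284.5 in the control arrays, again with control 1 the highest. The ratio of 3′ to 5′ control signal of Actb, a sign of RNA quality, was 1.10 to 1.24 in the replacement arrays and 1.298 to 1.35 in the control arrays, and that of Gapdh was 0.66 to 0.715 in the replacement arrays and 0.651 to 0.774 in the control arrays. The part of these markers in the lower level of the members was not tested.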

How the data were processed

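The authors deposited linear probe set intensities for 45101 probe sets on 6 arrays, whose mean, trimmed by 2% at each end, is 100 on every array. GCRMA and limma were used per the submitters' processing notes, and the sources used here do not say how the linear values arose. Intensities were floored at 16 and log2 was taken, which compresses differences of dim genes. Probe sets with at least 3 of 6 arrays reaching 16 were kept. The platform annotation named 34945 probe sets with 1 gene symbol, 932 with several and 9160 with none, beside 64 controls, and 34741 of the 1-symbol probe sets were matched to the GRCm38.p6 gene table by Entrez identifier. The brightest kept probe set stood for its gene.

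limma 3.58.1 in R 4.3.3 (lmFit, eBayes) compared 3 replacement with 2 control replicates over 12994 genes, with Benjamini-Hochberg adjustment over all of them and a threshold of 0.05. Each SE comes from the moderated variance. The fit was tested on simulated data. The number of arrays limits the precision. Every member is named in the text, with all array values where it was called, differed by 1 or more or did not overlap, and up to 4 genes of smallest p stand for each pathway list. Members and lists were chosen with earlier results of these data known. Alternatives covered the replicates, floor, filter, scaling, probe set rule, eBayes options, array weights, sex and each replicate left out. Promoter sequences are from RefSeq (GRCm38.p6), and figures were drawn with matplotlib 3.10.9.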

Additional observations from a re-analysis of the deposited data

How the results depend on the processing

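Of 775 member values under 20 alternatives, 689 kept their side of the threshold with no turn of sign (2 of these at 0), 43 lost a call, 36 gained one and 7 turned their sign, none of them called. These were Oas3 without control 3 (-0.16) and without controls 2 and 3 (-0.27), Iigp1 without control 1 (0.19) and without replacement 2 (0.01), and Parp9 with scaling to array medians (0.006), without control 1 (0.02) and without replacement 2 (0.034). Over the arrays left out, Oas3 ran between -0.27 and 0.63, Iigp1 between -0.55 and 0.19 and Parp9 between -0.13 and 0.034. The count of 7 lower members became 15 with all 6 arrays as separate replicates (1 higher), 12 with array weights, 4 with scaling to array medians and 4 with every kept probe set tested. The share of all genes called moved too, to 18.1%, 13.9%, 6.33% and 6.44%, against 9.12%. The count was 1 with no filter on dim probe sets and 0 with a floor of 64, where 0.89% and 1.23% of all genes were called. Leaving out arrays gave 0 to 9 lower members and no higher one, with medians of -0.69 to -0.51. With the replicate block and all 6 arrays the count was 12, and 16.2% of all genes were called. Same-numbered replacement and control arrays did not deviate together (r = -0.017, -0.001 and -0.055). With control 2 and control 3 nearly alike, these values cannot show whether same-numbered samples belonged together. The median of -0.59 was -0.37 within the male and -0.74 within the female arrays, values added after the data were seen. Of 20 alternatives, or 19 where a filter removed the gene, Xaf1 lost its call in 9, Ifit1 and Rtp4 in 8 each, Ifi27 in 6, Gbp3 in 5, Ifi47 in 4 and Gbp6 in 3. Signal near the floor limits Gbp3 and Gbp6: with a floor of 64 their differences were 0 and -0.15.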
